A study of Mus musculus with 27 samples.

Results

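The 9 genes described here encode transcription factors that identify the layers and projection neurons of the cerebral cortex. They are Cux1, Cux2, Rorb, Fezf2, Tbr1, Tle4, Neurod2, Neurod6 and Mef2c. They were taken by symbol from the 52636 Ensembl gene identifiers of the count tables, and each of the 9 symbols matched a single identifier. On GRCm38.p6 the RefSeq annotation places Cux1 (ENSMUSG00000029705) at chr5:136248135-136567590, Cux2 (ENSMUSG00000042589) at chr5:121857962-122050415, Rorb (ENSMUSG00000036192) at chr19:18930609-19111196 and Fezf2 (ENSMUSG00000021743) at chr14:12338992-12346803. It places Tbr1 (ENSMUSG00000035033) at chr2:61802863-61814114, Tle4 (ENSMUSG00000024642) at chr19:14448072-14598183, Neurod2 (ENSMUSG00000038255) at chr11:98325415-98329645, Neurod6 (ENSMUSG00000037984) at chr6:55677818-55681263 and Mef2c (ENSMUSG00000005583) at chr13:83504017-83667079. No member lies on chromosome 7, which carries the deletion. RNA was sequenced from frontal cortex and striatum of adult 129S1 mice about 2.5 months old, to examine the effect of an enhancer deletion near Igf2. Igf2enh-/- mice are homozygous for a 4.9 kb deletion between H19 and Igf2 (chromosome 7, 149796331 to 149801250 in mm9) made by gene targeting in ES cells, and a single loxP site is left there after Hprt-Cre removed the selection cassette. Wild-type mice carry the intact sequence. The deletion is present in every cell and is not specific to neurons. The frontal cortex libraries were 6 wild-type and 6 Igf2enh-/-, with 3 females and 3 males of each genotype. The striatal libraries were 7 wild-type (3 females and 4 males) and 8 Igf2enh-/- (4 females and 4 males). The labels do not tie a frontal cortex library to a striatal library of the same mouse, so the 27 libraries were treated as independent, and p-values measure the spread between these libraries. Some mice may have given both regions, and the p-values of the region comparison would then rest on fewer mice than libraries.

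Projection neurons of the cortex are excitatory, glutamatergic cells born in the dorsal forebrain. They settle in layers, and combinations of transcription factors set whether an axon stays within the cortex or leaves it for the thalamus, brainstem or spinal cord. The striatum lies beneath the cortex and consists mainly of GABAergic medium spiny neurons, which are born in the ventral forebrain and follow another transcription factor program.

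The upstream sequences of Neurod2, Neurod6 and Tle4 are shown because the first 2 were among the 3 members with the widest range between striatal libraries and Tle4 differed between the regions in the opposite direction. Each is the 250 bases before the RefSeq transcript start that coincides with the outer end of the gene, on GRCm38.p6, written 5′ to 3′ on the strand of the gene. Capitals mark E-boxes, CANNTG, the core motif of basic helix-loop-helix factors such as Neurod2 and Neurod6. The Neurod2 sequence lies at chr11:98329646-98329895, the Neurod6 sequence at chr6:55681264-55681513 and the Tle4 sequence at chr19:14598184-14598433, each on the minus strand.
Neurod2: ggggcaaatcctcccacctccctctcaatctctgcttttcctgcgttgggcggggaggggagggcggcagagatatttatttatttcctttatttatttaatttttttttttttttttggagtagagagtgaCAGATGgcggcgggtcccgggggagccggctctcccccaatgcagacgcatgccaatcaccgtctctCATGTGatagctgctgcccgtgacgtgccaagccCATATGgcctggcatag
Neurod6: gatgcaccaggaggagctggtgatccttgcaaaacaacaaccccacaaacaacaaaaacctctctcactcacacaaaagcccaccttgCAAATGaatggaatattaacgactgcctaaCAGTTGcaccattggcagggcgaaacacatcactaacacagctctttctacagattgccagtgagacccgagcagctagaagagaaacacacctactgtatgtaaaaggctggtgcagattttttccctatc
Tle4: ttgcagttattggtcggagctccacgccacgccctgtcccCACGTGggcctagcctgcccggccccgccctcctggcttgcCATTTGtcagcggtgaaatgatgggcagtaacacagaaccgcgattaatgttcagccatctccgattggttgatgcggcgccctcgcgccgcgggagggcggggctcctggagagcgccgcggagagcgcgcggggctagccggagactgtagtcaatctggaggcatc
The Neurod2 window held 3 E-boxes, and the Neurod6 and Tle4 windows held 2 each. One of those of Neurod2 was CAGATG, the form that NeuroD factors prefer. Searched on both strands, CANNTG was present in 66.2% and CAGATG, which is one form of CANNTG, in 14.4% of 32851 RefSeq windows of the same length. Over all 14 windows of the 9 members, 9 held CANNTG and 3 held CAGATG. A match is a description of the sequence and not a site of binding.

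The libraries held 23686945 to 33926904 counts, so that 1 CPM, the unit of counts scaled to library size, stood for 23.7 to 33.9 counts. CPM below are scaled by trimmed mean of M-values (TMM) factors of 0.977 to 1.04. The labelled sex matched the transcripts of the sex chromosomes in 27 of 27 libraries. Igf2 lies outside the deleted fragment, so its counts are no direct check of the deletion. In frontal cortex its level was 52.1 to 108 CPM in wild-type (median 71.3 CPM) and 88.5 to 173 CPM in Igf2enh-/- mice (median 119 CPM). In striatum it was 33.8 to 44.0 CPM in wild-type (median 36.9 CPM) and 46.0 to 259 CPM in Igf2enh-/- mice (median 51.6 CPM), where all Igf2enh-/- libraries lay above all wild-type libraries. The 259 CPM was that of library 15 alone, and the next highest, library 17, held 61.65 CPM. The labelled regions were checked against 16 medium spiny neuron genes, including Drd2 and Ppp1r1b, and their summed level was 708 to 882 CPM in frontal cortex and 7355 to 19530 CPM in striatum. The summed level of 20 cortical projection neuron genes was 4283 to 4744 CPM in frontal cortex and 1609 to 2664 CPM in striatum. Of these genes 5 were higher in striatum, among them Camkv with medians of 828 CPM there and 450 CPM in frontal cortex. Such genes hold a large part of the striatal sum. Slc17a7, another gene of the list, ranged from 13.6 to 744 CPM in striatum and from 1485 to 1687 CPM in frontal cortex. Library 20, a wild-type male striatum, stood apart with the lowest medium spiny neuron sum of the striatal libraries, the next lowest being 10060 CPM. It also had the highest cortical projection neuron sum, close to the 2628 CPM of library 16. The striatal spread and the region, genotype and sex comparisons are given with and without it.

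All 9 members were detected in both regions and in every library. Per length of annotated exon, the order of their medians in frontal cortex was led by Mef2c at 131 RPKM (CPM divided by exon length in kilobases), followed by Neurod6 at 50.9, Neurod2 at 36.1, Tbr1 at 32.2, Cux2 at 23.3, Cux1 at 14.8, Fezf2 at 13.3, Tle4 at 11.0 and Rorb at 7.56 RPKM. The ranges of Neurod2 and Tbr1, of Tbr1 and Cux2, and of neighbours from Cux1 to Rorb overlapped over the 12 libraries, and those of Mef2c and Neurod6 stood clear of the rest. In striatum the order was Mef2c at 37.1, Tle4 at 32.6, Cux1 at 13.2, Neurod6 at 7.64, Tbr1 at 5.72, Neurod2 at 4.61, Cux2 at 4.29, Rorb at 2.68 and Fezf2 at 1.86 RPKM. There the ranges of all neighbours in the order overlapped except those of Tle4 and Cux1. Tle4 thus stood next to last in frontal cortex and in second place in striatum. Exon lengths came from an older annotation than that used for counting, which makes this order approximate.

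The first comparison set the regions against each other. In striatum, 7 of the 9 members were lower by more than 2-fold, Tle4 was higher, and Cux1 did not pass the test. The members that were lower cover upper-layer, layer-specific and pan-excitatory factors. Of the 14909 genes tested, 38.6% were lower and 39.0% were higher in striatum at an adjusted p under 0.05, and 6.10% were lower by 2-fold or more. The median log2 difference was -2.12 for the 9 members and 0.0055 for all genes tested. The tissue is bulk RNA, in which fewer cells of a type and less RNA per cell cannot be told apart.

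Cux2, a homeodomain factor of upper-layer neurons that regulates dendrites and spines, ranged from 166 to 221 CPM in frontal cortex with a median of 186 CPM. In striatum it ranged from 13.8 to 112 CPM with a median of 34.4 CPM. All 15 striatal libraries lay below all 12 frontal cortex libraries. The log2 difference was -2.24 (standard error 0.237, edgeR adjusted p = 2.39e-09), a 4.73-fold lower level. Cux1, the related homeodomain factor, is expressed more widely in the brain. It ranged from 73.8 to 138 CPM in frontal cortex (median 113 CPM) and from 95.5 to 137 CPM in striatum (median 101 CPM). Here the regions overlapped almost entirely, and the log2 difference was -0.072 (standard error 0.0755, edgeR adjusted p = 0.389). Rorb, an orphan nuclear receptor of the thalamus-receiving granular layer, ranged from 45.3 to 103 CPM in frontal cortex (median 83.7 CPM) and from 26.0 to 91.3 CPM in striatum (median 29.7 CPM). Only libraries 20 and 23 reached into the frontal cortex range, and the other 13 of 15 striatal libraries lay below it. The log2 difference of Rorb was -1.22 (standard error 0.161, edgeR adjusted p = 1.19e-07).

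Fezf2, a zinc finger repressor required for corticospinal and other subcerebral neurons, ranged from 24.0 to 42.4 CPM in frontal cortex (median 30.7 CPM) and from 1.64 to 14.9 CPM in striatum (median 4.29 CPM). Its regions did not overlap, and the log2 difference was -2.41 (standard error 0.225, edgeR adjusted p = 2.29e-10). Tbr1, a T-box factor that specifies corticothalamic neurons of the deep layers, ranged from 149 to 189.8 CPM in frontal cortex (median 177 CPM) and from 2.12 to 106 CPM in striatum (median 31.4 CPM). The 2 regions did not overlap for Tbr1 either, though its striatal libraries differed among themselves by 49.9-fold. The log2 difference was -2.12 (standard error 0.356, edgeR adjusted p = 5.9e-06). Tle4, a Groucho-family corepressor that marks corticothalamic neurons, was the exception among the deep-layer members. It ranged from 40.7 to 62.5 CPM in frontal cortex (median 51.0 CPM) and from 90.8 to 179 CPM in striatum (median 151 CPM). Every striatal library was above every frontal cortex library, and the log2 difference was 1.51 (standard error 0.0898, edgeR adjusted p = 3.61e-14), a 2.84-fold higher level.

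Neurod2, a basic helix-loop-helix factor of postmitotic excitatory neurons that acts in their maturation, ranged from 106 to 125 CPM in frontal cortex (median 113 CPM) and from 1.2 to 75.8 CPM in striatum (median 14.5 CPM). Its regions did not overlap, and the log2 difference was -2.41 (standard error 0.367, edgeR adjusted p = 1.3e-06). Neurod6, a family member found in much the same neurons, ranged from 92.5 to 156 CPM in frontal cortex (median 109.7 CPM) and from 0.787 to 34.3 CPM in striatum (median 16.5 CPM). It had the largest difference of the 9 members, -2.85 on the log2 scale (standard error 0.325, edgeR adjusted p = 1.02e-08), or 7.20-fold. Mef2c, a MADS-box factor that couples neuronal activity to synapse number, ranged from 872 to 1029 CPM in frontal cortex (median 966 CPM) and from 207 to 549.5 CPM in striatum (median 274 CPM). All striatal libraries lay below all frontal cortex libraries, and the log2 difference was -1.69 (standard error 0.116, edgeR adjusted p = 5.43e-13). Groups that did not overlap with striatum lower were found for 6 members, against 13.8% of all genes tested, and for Tle4 with striatum higher, against 12.6% of genes.

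**Figure D1:**
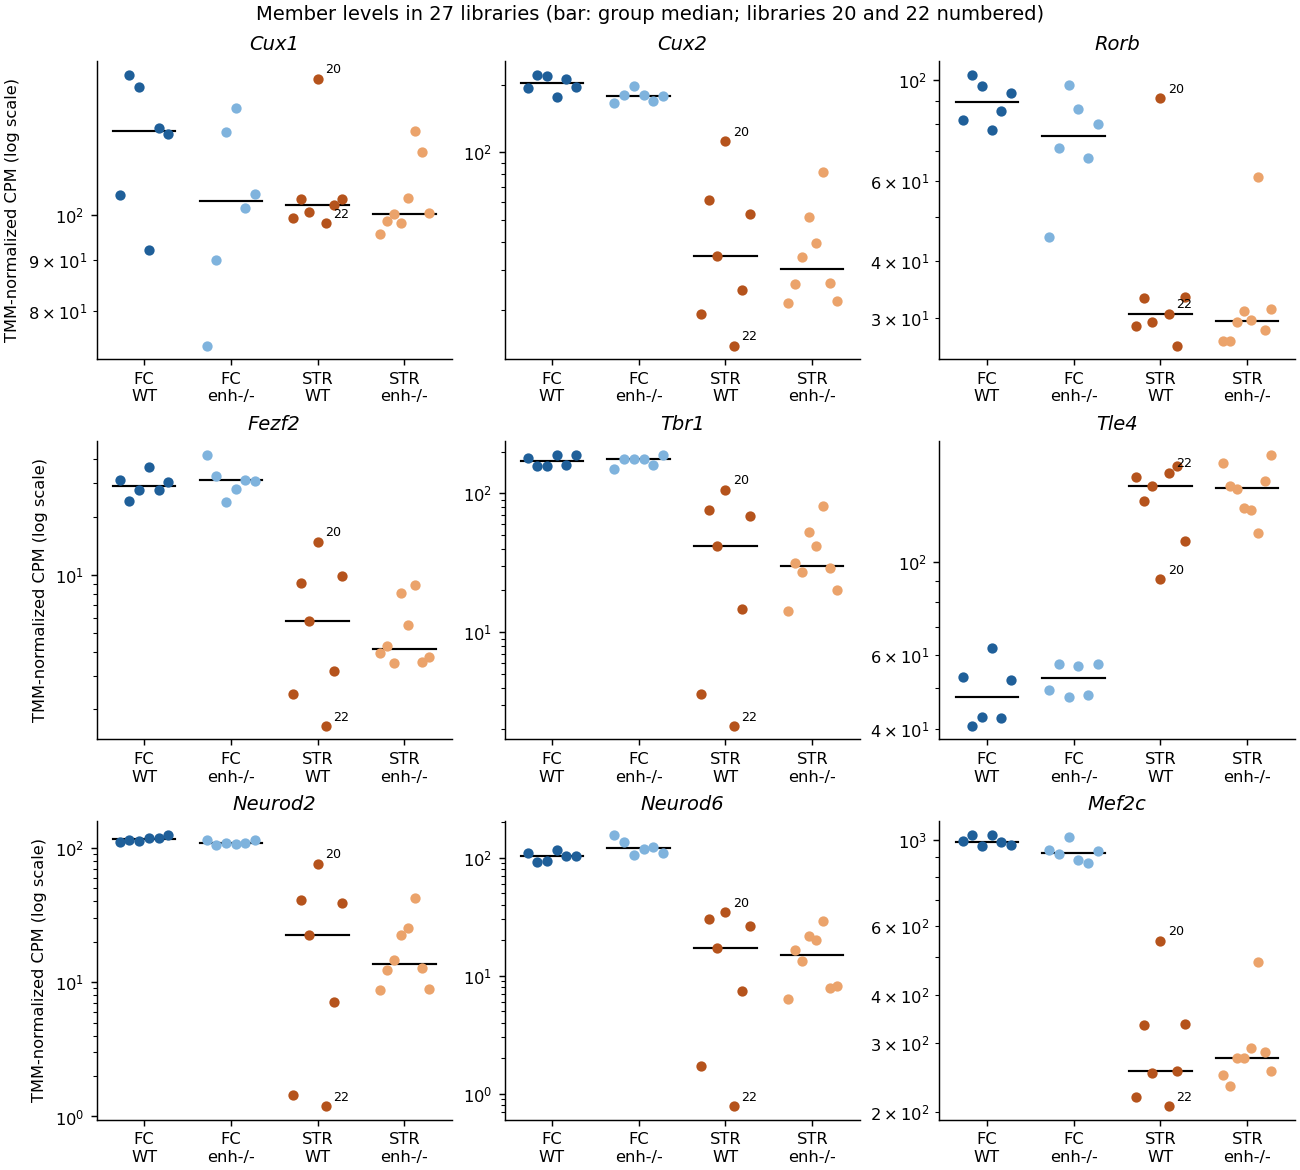
Level of each member in the 27 libraries, as TMM-normalized CPM on a log scale, by region (FC, frontal cortex; STR, striatum) and genotype (WT, wild-type; enh-/-, Igf2enh-/-). Points are libraries and bars are group medians. The striatal libraries of Tbr1, Neurod2 and Neurod6 spread over a range of 43.6-fold or more, with library 20 at the top and library 22 at the bottom, whereas the 12 frontal cortex libraries lay within 1.69-fold.

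**Figure D2:**
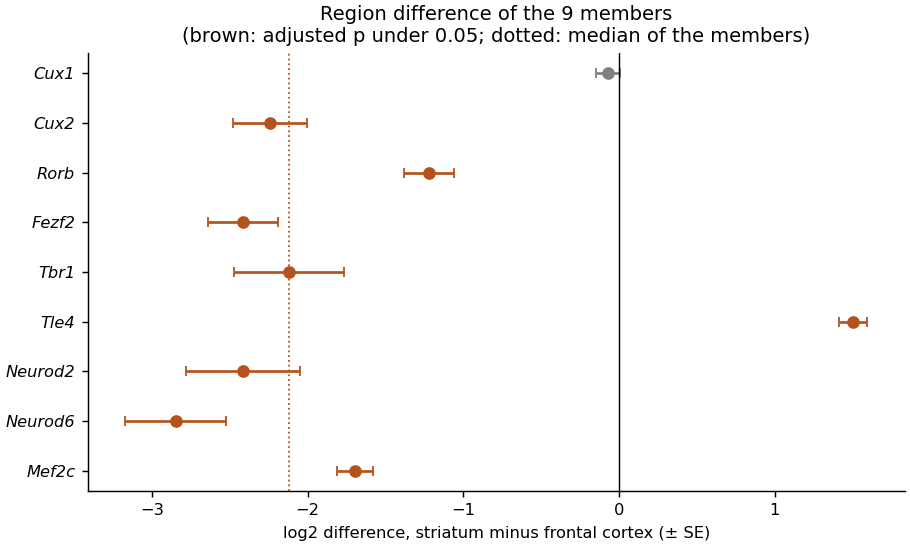
Log2 difference of each member, striatum minus frontal cortex, with its standard error. Brown points passed an adjusted p of 0.05, and the dotted line is the median of the 9 members at -2.12. All 7 members lower in striatum lie to the left of -1, Tle4 lies at 1.51 and Cux1 at -0.072.

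The direction and call of these 8 members held in wild-type libraries alone and in Igf2enh-/- libraries alone, with medians over the 9 members of -1.96 and -2.27. The same was found in females alone (median -2.38) and in males alone (median -1.87). Without library 20 the median was -2.26. Without libraries 20 and 23, an alternative added after the data were seen, the median was -2.39, and the log2 difference of Rorb was -1.46 (edgeR adjusted p = 3.76e-14). Oligodendrocyte genes moved with the regions as well. All 10 of them were higher in striatum, and their summed level was 1018 to 2140 CPM in frontal cortex and 4874 to 10590 CPM in striatum. All 16 medium spiny neuron genes were higher in striatum, and all 10 meningeal fibroblast genes were lower, with summed levels of 77.8 to 178 CPM in frontal cortex and 29.0 to 105 CPM in striatum. None of these lists was at 0 in either region, and their part in the difference of the members was not tested.

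Other genes of the same programs were read from lists of cortical and striatal regulators. Of 22 other cortical transcription factors, 16 were lower and 4 were higher in striatum, with a median log2 difference of -1.12. Lmo4, a LIM-only cofactor, had a log2 difference of -1.12 (standard error 0.0542, edgeR adjusted p = 5.33e-16). Foxp2, a forkhead factor of deep layers and of medium spiny neurons, was higher by 3.00 (standard error 0.138, edgeR adjusted p = 2.15e-16). Lmo3 was higher by 1.48 (standard error 0.0775, edgeR adjusted p = 2.7e-15). So Tle4 was not alone among cortical markers in being higher in striatum. Of 20 striatal transcription factors, 18 were higher and 2 lower, and Rarb, a retinoic acid receptor, was higher by 3.95 (standard error 0.126, edgeR adjusted p = 1.37e-19). Of 20 cortical projection neuron genes, 13 were lower and 5 higher in striatum.

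Paralogs of the members did not share one direction. Of the 16 listed, 12 passed the filter on low counts, 8 of them were lower in striatum and 3 were higher. Within the Groucho family, Tle1 was higher in striatum by 0.90 (standard error 0.0535, edgeR adjusted p = 3.64e-14), Tle3 was lower by -1.38 (standard error 0.0841, edgeR adjusted p = 5.97e-14), and Tle2 was lower by -0.66 (standard error 0.0815, edgeR adjusted p = 4.31e-08). Within the MEF2 family, Mef2a was higher in striatum by 0.58 (standard error 0.054, edgeR adjusted p = 2.09e-10), whereas Mef2c was lower. Mef2d had a log2 difference of -0.11 (standard error 0.0236, edgeR adjusted p = 0.000136). Neurod1 was low in both regions, with medians of 15.8 CPM in frontal cortex and 0.742 CPM in striatum, and lower in striatum by -3.04 (standard error 0.382, edgeR adjusted p = 5.82e-08), which is the direction of Neurod2 and Neurod6.

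The second comparison asked whether the enhancer deletion changed the members in frontal cortex. None of the 9 passed the adjusted threshold. Across all genes, 53 of 13936 passed, or 0.380%. The members with an unadjusted p under 0.05 were 4 of 9, namely Cux2, Neurod2, Neurod6 and Mef2c, where 13.5% of all genes reached that level. Their differences were small, and the median over the 9 members was -0.087 on the log2 scale against 0.00074 for all genes tested.

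Cux2 ranged from 177 to 221 CPM in wild-type frontal cortex (median 203 CPM) and from 166 to 198 CPM in Igf2enh-/- frontal cortex (median 179 CPM). The genotypes overlapped, with 2 of 6 Igf2enh-/- libraries below all wild-type libraries. The log2 difference, Igf2enh-/- minus wild-type, was -0.19 (standard error 0.0537, edgeR adjusted p = 0.157). Neurod6 ranged from 92.5 to 116 CPM in wild-type (median 103 CPM) and from 105 to 156 CPM in Igf2enh-/- frontal cortex (median 120 CPM), and 4 of 6 Igf2enh-/- libraries lay above all wild-type libraries. Its log2 difference was 0.27 (standard error 0.0870, edgeR adjusted p = 0.188). Mef2c ranged from 961 to 1029 CPM in wild-type (median 989 CPM) and from 872 to 1018 CPM in Igf2enh-/- frontal cortex (median 926 CPM). Here 5 of 6 Igf2enh-/- libraries lay below every wild-type library, at a log2 difference of -0.10 (standard error 0.0364, edgeR adjusted p = 0.244). Neurod2 ranged from 109.7 to 125 CPM in wild-type (median 116 CPM) and from 106 to 115 CPM in Igf2enh-/- frontal cortex (median 109 CPM), at a log2 difference of -0.086 (standard error 0.0337, edgeR adjusted p = 0.277).

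Rorb ranged from 77.7 to 103 CPM in wild-type (median 89.7 CPM) and from 45.3 to 97.8 CPM in Igf2enh-/- frontal cortex (median 75.5 CPM), with 3 of 6 Igf2enh-/- libraries below the wild-type range. Its log2 difference was -0.27 (standard error 0.139, edgeR adjusted p = 0.415). The lowest Rorb belonged to library 1, an Igf2enh-/- female, which also had the lowest Cux1, Cux2 and Tbr1 and the highest Fezf2 and Neurod6 of the 12 frontal cortex libraries. Library 1 likewise had the lowest oligodendrocyte sum (1018 CPM) and the lowest medium spiny neuron sum (708 CPM) in that region, and their part in these differences was not tested. Without library 1 the log2 difference was -0.15 for Rorb, -0.12 for Cux1, 0.20 for Neurod6 and -0.029 for Fezf2. Cux1 (log2 difference -0.21, standard error 0.126), Fezf2 (0.086, 0.118), Tbr1 (-0.0006, 0.0601) and Tle4 (0.10, 0.0900) had edgeR adjusted p-values of 0.499, 0.799, 0.997 and 0.656. When the filter on low counts was dropped, 3 members were called. Their edgeR adjusted p-values were 0.0105 for Cux2, 0.0431 for Rorb and 0.00171 for Neurod6. Of all genes 459 of 33060 were called, instead of 53 of 13936. The log2 differences of these 3 members stayed at -0.19, -0.27 and 0.27. Their standard errors were 0.0442, 0.0752 and 0.0556, against 0.0537, 0.139 and 0.0870 with the filter. Among paralogs 1 passed with the filter, Tle3, at a log2 difference of -0.24 (standard error 0.0433, edgeR adjusted p = 0.0313).

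In striatum, 0 of the 8 members tested passed, against 5 of all 13875 genes tested (0.0360%). None of the 8 had an unadjusted p under 0.05, a level that 1395 of the genes tested reached. Neurod6 was not in the test because library 22 held 0.787 CPM, under the minimum of 1 CPM, and in the fit without a filter its log2 difference was -0.14 (standard error 0.523, edgeR adjusted p = 0.968). Without library 22 it passed the filter, at -0.38 (standard error 0.475, edgeR adjusted p = 0.792). The other differences ran from -0.54 for Neurod2 (standard error 0.651, edgeR adjusted p = 0.845) to 0.071 for Tle4 (standard error 0.122, edgeR adjusted p = 0.901). The standard errors of Tbr1 (0.625) and Neurod2 (0.651) were more than 10 times those in frontal cortex (0.0601 and 0.0337), so that changes of the size seen in frontal cortex were not detectable in striatum for these genes.

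For Tbr1 the striatal range was 2.12 to 106 CPM in wild-type (median 42.1 CPM) and 14.1 to 81.5 CPM in Igf2enh-/- mice (median 30.2 CPM). For Mef2c it was 207 to 549.5 CPM in wild-type (median 254 CPM) and 232 to 485 CPM in Igf2enh-/- mice (median 275 CPM). Both the highest and the lowest library of Tbr1, and of Mef2c, were wild-type. The median difference of the 8 members was -0.23 on the log2 scale with all libraries and 0.042 without library 20. It also moved by more than 1.5 times without library 16 (-0.031), library 27 (-0.15), library 24 (-0.34) or library 23 (-0.41), and without library 22 it was -0.38 over all 9 members. Without libraries 20 and 23 together it was -0.089. Without library 20 the sign turned for Cux1 (0.043), Cux2 (0.081), Tbr1 (0.040), Rorb (0.11), Mef2c (0.13) and Tle4 (-0.0014), and the values of Neurod2 (-0.093) and Fezf2 (-0.089) moved nearer to 0. The lowest of these edgeR adjusted p-values was 0.855.

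**Figure D3:**
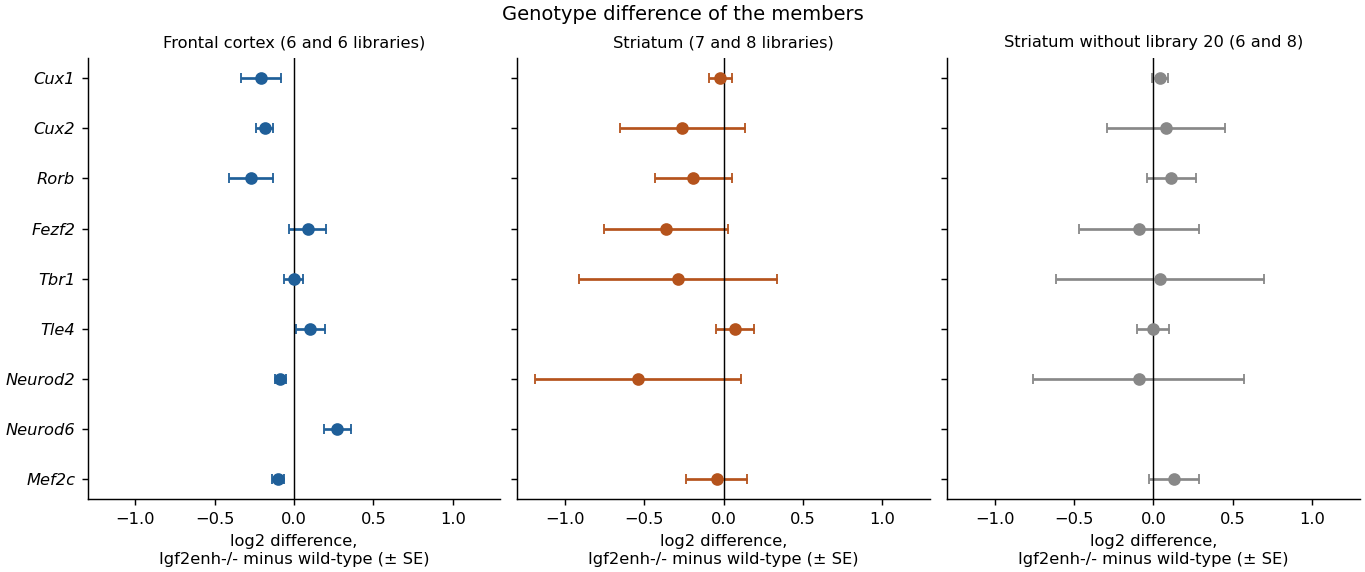
Log2 difference of each member, Igf2enh-/- minus wild-type, with its standard error, in frontal cortex, in striatum, and in striatum without library 20. None passed an adjusted p of 0.05. Neurod6 is not drawn in striatum because it did not pass the filter on low counts. The striatal bars of Tbr1 and Neurod2 are wide, and without library 20 the points lie between -0.093 and 0.13.

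A test of whether the genotype difference itself differed between the regions called 0 of 14909 genes (0%) in edgeR, with 433 at an unadjusted p under 0.05, and 0 with the likelihood ratio test of edgeR and with DESeq2. Unadjusted p-values of the 9 members ran from 0.239 for Cux1 to 0.900 for Tle4. Sex, the other factor of the design, gave 0 members called in either region, where 0.0431% of genes passed in frontal cortex and 0.0432% in striatum. In striatum 7 of the 8 members tested were higher in males than in females by the fit, with a median log2 difference of 0.55, and the smallest unadjusted edgeR p was 0.052, for Rorb (log2 difference 0.52, standard error 0.245). Libraries 20 and 23, the highest 2 for Rorb, were both male. The median was 0.29 without library 20 and 0.073 without both, and the difference of Rorb was 0.26 and 0.069.

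The spread among striatal libraries was the main feature of the members in that region. The coefficient of variation over the 15 striatal libraries was 89.6% for Neurod2, 75.3% for Tbr1, 66.7% for Neurod6, 65.0% for Cux2, 61.3% for Fezf2, 48.9% for Rorb and 32.1% for Mef2c. The median over the 14909 genes tested was 10.3%, and only 109 of them varied more than Neurod2. Tle4 (16.8%) and Cux1 (10.6%) lay nearer to the median. Without library 20 the coefficient was 75.6% for Neurod2, 71.4% for Tbr1, 66.4% for Neurod6, 52.9% for Cux2, 51.5% for Fezf2, 27.5% for Rorb and 24.7% for Mef2c, where the median of all genes was 9.32%. Over the 12 frontal cortex libraries the order was different. There Neurod2 had a coefficient of variation of 5.04%, with 11260 of the genes tested above it, and Rorb at 19.4% and Cux1 at 17.7% varied most, where the median of all genes was 7.58%.

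Library 20 had the highest striatal level of 8 of the 9 members and the lowest level of Tle4. In it Tbr1 reached 106 CPM, or 59.9% of the frontal cortex median. Cux2 reached 112 CPM (60.1%), Neurod2 75.8 CPM (66.8%), Fezf2 14.9 CPM (48.6%), Mef2c 549.5 CPM (56.9%) and Neurod6 34.3 CPM (31.2%). Rorb reached 91.3 CPM, which was 109% of the frontal cortex median. Tle4 stood at 90.8 CPM, the other libraries of striatum holding 112 to 179 CPM. Library 23, an Igf2enh-/- male, was second for 6 members, with 81.5 CPM of Tbr1, 61.2 CPM of Rorb and 485 CPM of Mef2c. Libraries 16 and 26, both wild-type, followed for most members, and their Rorb of 33.2 and 33.3 CPM was close to that of the remaining libraries.

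At the other end, library 22, a wild-type male, was lowest for 6 members, and library 14, a wild-type female, was second lowest for 6. Library 22 held 2.12 CPM of Tbr1 (62 counts), 1.2 CPM of Neurod2 (35 counts) and 0.787 CPM of Neurod6 (23 counts), which were 1.2%, 1.06% and 0.717% of the frontal cortex medians. In the same library Fezf2 stood at 5.34%, Cux2 at 7.42%, Mef2c at 21.4%, Rorb at 36.6% and Cux1 at 86.9% of the frontal cortex median, and Tle4 at 319%. Library 14 gave much the same order, with Neurod2 at 1.28%, Neurod6 at 1.58%, Tbr1 at 2.03%, Fezf2 at 7.86%, Cux2 at 10.3%, Mef2c at 22.6% and Rorb at 34.3%. In both libraries the 3 lowest shares were those of Tbr1, Neurod2 and Neurod6.

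To place each striatal library on 1 scale, its CPM was expressed as a position between the median of the other striatal libraries, set to 0, and the median of frontal cortex, set to 100%. This was done for the 8 members whose regions differed by more than 2-fold, and for Tle4 a position above 0 means a lower level. The median position was 52.0% in library 20, 32.4% in library 23, 18.3% in library 26 and 17.5% in library 16. It was -13.2% in library 22 and -9.86% in library 14. The members did not share 1 position within a library. In library 20 they ran from 20.5% for Neurod6 through 40.7% for Fezf2 and for Mef2c, 51.7% for Tbr1, 52.3% for Cux2, 60.2% for Tle4 and 62.3% for Neurod2 to 114% for Rorb. In library 23 they ran from 15.2% for Neurod6 to 58.4% for Rorb. In library 16 Rorb was at 6.82% and Tbr1 at 31.4%, and in library 26 at 6.87% and 26.2%.

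**Figure D4:**
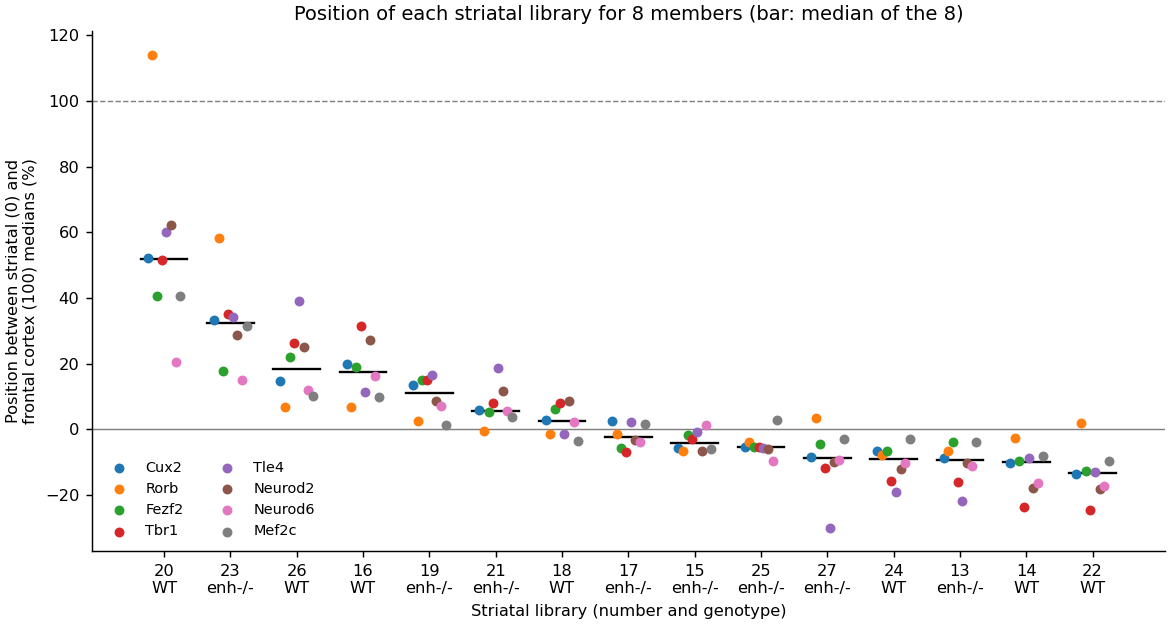
Position of each of the 15 striatal libraries for 8 members, in percent between the median of the other striatal libraries (0, solid line) and the frontal cortex median (100, dashed line). Bars are medians of the 8 members, and libraries are ordered by them. Library 20 is highest at a median of 52.0% and library 22 lowest at -13.2%. Rorb is the highest member in libraries 20 and 23 and the lowest in libraries 26 and 16.

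Ratios within a library do not depend on its depth, and they were compared between libraries only. The ratio of Rorb to Tbr1 in CPM was 0.304 to 0.658 in frontal cortex. In striatum 12 of 15 libraries lay above that range, and the median was 0.862, which was the value of library 20. Library 23 stood at 0.75. Libraries 16 (0.436), 26 (0.485) and 19 (0.592) lay within the frontal cortex range, and the highest ratios were 8.02 and 14.5 in libraries 14 and 22, where Tbr1 was lowest. The ratio of Neurod6 to Neurod2 was 0.813 to 1.36 in frontal cortex, and 0.452 in library 20, its lowest value over the 27 libraries. Of the 7 ratios computed, Neurod2 to Tbr1 varied least in striatum, from 0.599 to 0.768 in frontal cortex and from 0.393 to 0.716 in striatum.

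The same positions were taken for the genes of the other lists. In library 20 the median was 51.5% for 15 other cortical transcription factors, 35.6% for 14 cortical projection neuron genes, 59.2% for 17 striatal transcription factors, 57.4% for 16 medium spiny neuron genes and 49.3% for 6 interneuron genes, where a position above 0 means a lower level for genes that are higher in striatum. Both cortical lists include such genes, among them Foxp2 and Syt6. Their medians thus mix higher levels of some genes with lower levels of others. In library 20 the other cortical transcription factors ran from 13.5% to 108% and the cortical projection neuron genes from -57.9% to 125%. The interneuron list includes Slc32a1 and Gad2, genes of GABAergic neurons in general that were higher in striatum, so it is no separate reading of interneurons. The summed level of the medium spiny neuron genes was 7355 CPM in library 20 and 10060 to 19530 CPM in the other 14 striatal libraries. For oligodendrocyte genes the median position was -123%, since their summed level was 10590 CPM in library 20, above the 4874 to 9310 CPM of the other striatal libraries and far above frontal cortex. Library 22, which was lowest for 6 of the 9 members, was next at 9310 CPM. Mbp, a myelin gene chosen after its values were seen, showed the same 2 libraries at the top, with 4254 CPM in library 20 and 3509 CPM in library 22. The astrocyte sum was also highest in library 20, at 5180 CPM against 3705 to 4920 CPM elsewhere in striatum. The part of these other cells in the level of the members was not tested.

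**Figure D5:**
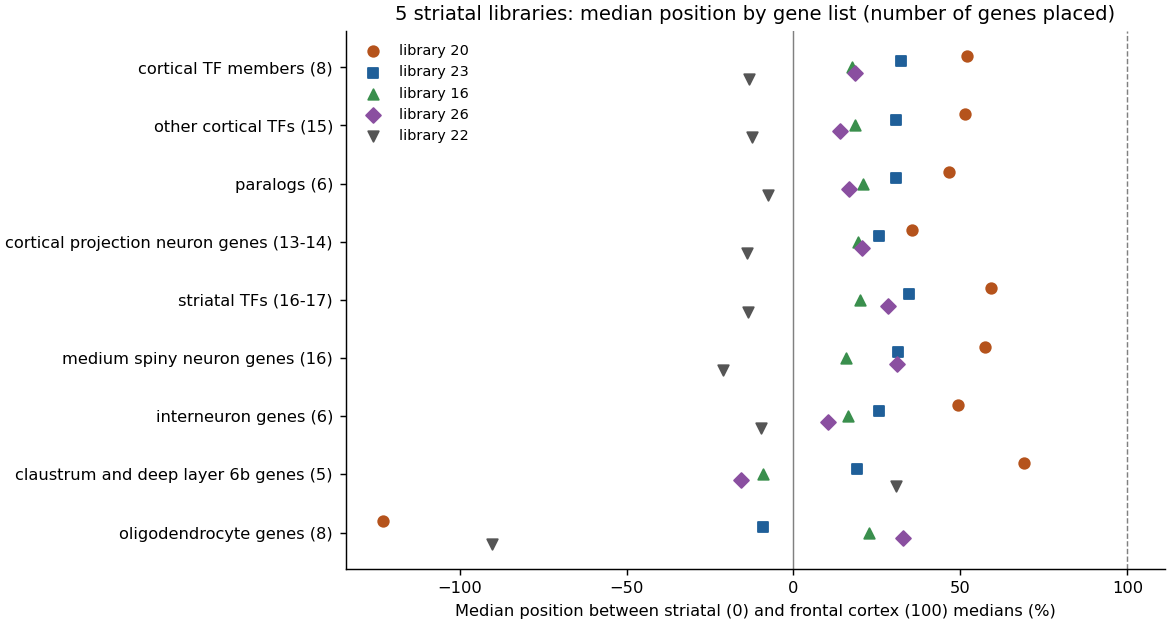
Median position of 5 striatal libraries between the striatal (0) and frontal cortex (100) medians, by gene list, with the number of genes placed in brackets. In library 20 the cortical and striatal neuron lists lie between 35.6% and 59.2%, the claustrum list lies at 69.0% and the oligodendrocyte list lies at -123%. For genes that are higher in striatum, claustrum list genes such as Synpr among them, a position above 0 means a lower level. Libraries 23, 26 and 16 lie nearer to 0, and library 22 lies below 0 for the members.

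Nr4a2, an orphan nuclear receptor of the claustrum and the deepest cortical layer, was read beside Tbr1, a choice made with its values in view. Its ratio to Tbr1 was 0.0371 to 0.131 in frontal cortex and 0.177 to 1.80 in striatum, and library 20 had the lowest striatal ratio. Nr4a2 was higher in striatum by 1.49 on the log2 scale (standard error 0.381, edgeR adjusted p = 0.000946), and 11 of 15 striatal libraries lay above its highest frontal cortex level of 22.1 CPM. The highest was library 16 at 77.4 CPM. Libraries 20 and 24, at 18.7 and 18.25 CPM, lay within the frontal cortex range. Libraries 14 and 22 lay below it, at 1.89 and 1.64 CPM. The 6 claustrum and deep layer 6b genes summed to 325 CPM in library 20, the lowest striatal value, and to 684 CPM in library 16, the highest. Of these genes 4 were higher in striatum than in frontal cortex, among them Synpr with medians of 295 and 127 CPM. Synpr held a large part of the striatal sum, whose median was 555 CPM, so the sum is no separate reading of the claustrum. Gng2 was lower in striatum, and Ntng2 did not pass the test. In frontal cortex the sum was 352 to 459 CPM, so that library 20 lay below every frontal cortex library. Library 22, which was lowest for Tbr1, had the next lowest striatal sum, at 362 CPM.

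The gene outside the 9 members whose profile over the 27 libraries was nearest to each member was found by the root mean square difference of log2 CPM, with 0.5 CPM added and each gene centred on its own mean. For Neurod2 it was Slc17a7, the vesicular glutamate transporter of cortical excitatory neurons, at 0.22. Slc17a7 ranged from 1485 to 1687 CPM in frontal cortex and from 13.6 to 744 CPM in striatum. For Neurod6 it was Cck, which encodes cholecystokinin, at 0.216, and for Tbr1 it was Rtn4rl2, a Nogo receptor relative, at 0.25. Cux2 was nearest to Stx1a, a syntaxin of the presynaptic membrane, at 0.125, Mef2c to Lingo1 at 0.148, Rorb to Cabp1, a neuronal calcium-binding protein, at 0.153, and Fezf2 to Efcab6 at 0.21. Tle4 was nearest to Akap9, a kinase-anchoring protein, at 0.13, and Cux1 to Tspan9 at 0.121. Among the members themselves Tbr1 and Neurod2 were nearest to each other at 0.247, which for Tbr1 is nearer than Rtn4rl2, and Tle4 had no member nearer than 0.858.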

How the data were processed

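Gene counts of 27 mouse RNA-sequencing libraries were used. The authors trimmed the 75 bp single-end reads (Trim Galore 0.5.0) before alignment by STAR to GRCm38 with GENCODE vM15, and deposited raw counts per gene. Neither the counting program nor its strand setting is given in the sources used here, so reads of antisense genes overlapping a member may be included. The tables held 0 columns of other series. Of 52636 identifiers, 32688 had a symbol, and all 9 members had one.

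The members and gene lists were chosen with earlier results of these data known. The region was tested in all libraries with edgeR 4.0.16 in R 4.3.3 (quasi-likelihood F-test, TMM, terms for genotype and sex) over genes with a mean of at least 1 CPM. Genotype was tested within each region, with sex as a term, over genes whose level reached 1 CPM in all of its libraries. Adjustment was that of Benjamini and Hochberg over all genes tested, at 0.05. Groups, sex and RNA amounts came from the labels, and libraries are named by their label number. The fits were tested on simulated counts with the same spread for all genes. That spread was narrower than that of most members in striatum, so the check does not cover them there. Replicates differed by more than sampling noise, with a mean chi-square per gene of 2.34 or more over all pairs. Levels are TMM-normalized CPM, and RPKM used exon lengths of GENCODE vM1. Named genes were the members, the nearest gene of each, up to 3 genes of smallest p for a list, paralogs, region markers and Igf2. Camkv, Gng2 and Ntng2, like Mbp and Nr4a2, were named with their values in view. Alternatives included DESeq2 1.42.0, the likelihood ratio test of edgeR, other scalings and filters, no sex term, subsets, a shared fit and 81 fits leaving out a library. Upstream sequences are those of RefSeq for GRCm38.p6. Figures were drawn with matplotlib 3.10.9.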

Additional observations from a re-analysis of the deposited data

Results flagged for a closer look

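For 4 of the 36 combinations of a member and a group, the extreme library lay further from its neighbour, on the log2 scale, than Dixon's 95% limit allows. The 1 in 20 expected from that limit holds for independent combinations, whereas members here vary together and share libraries. All 4 came from libraries 20 and 23, and library 20 had been singled out beforehand, so the flags are a description only. In wild-type striatum library 20 was separated from its neighbour by 0.83 of the range for Cux1, with 137 CPM against 98.0 to 104 CPM in the other libraries. For Rorb in the same group the gap was 0.806 of the range, with 91.3 CPM in library 20 against 26.0 to 33.3 CPM. In Igf2enh-/- striatum the gap of library 23 was 0.802 of the range for Rorb, with 61.2 CPM against 26.7 to 31.4 CPM. For Mef2c it was 0.695 of the range, with 485 CPM in library 23 against 232 to 291 CPM. No frontal cortex group was among them.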

How the results depend on the processing

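The region calls of the 8 members kept their direction and their side of the threshold under all alternatives in which they could be tested, 40 for each member and 39 for Neurod6, which falls out when 1 CPM is required in every library. Cux1, which was not called, had a log2 difference of 0.028 in Igf2enh-/- libraries alone. In frontal cortex the number of genes called by genotype moved from 53 to 232 with edgeR's likelihood ratio test, 247 with DESeq2, 459 without a filter, 20 in the shared fit and 8 (without library 10) to 96 (without library 1) on leaving out each library, passing 1.5 times also without libraries 4, 6, 7, 8, 9, 11 or 12, and the number of members called was 3 without a filter and 0 under every other alternative. In striatum it moved from 5 to 56 with the likelihood ratio test, 112 with DESeq2, 13 with filterByExpr, 10 without a filter, 3 without the sex term, 59 in the shared fit, 3 (without library 18, 19, 21, 24, 25 or 27) to 8 (without library 23) on leaving out each library, and 25 with the cortical projection neuron sum as a covariate, which was added after the data were seen. The members called in striatum stayed at 0 throughout. The sum used as covariate includes 5 genes that were higher in striatum than in frontal cortex. With that covariate the log2 differences in striatum were 0.020 for Cux1, 0.33 for Cux2, 0.29 for Fezf2, 1.10 for Tbr1 (edgeR adjusted p = 0.0996), 0.95 for Neurod2, 0.15 for Mef2c and -0.014 for Tle4. These members turned sign, whereas Rorb, the other of the 8 members tested, kept its sign. Without libraries 20 and 23 that of Cux1 was 0.0091, its male minus female difference was -0.012, and 3 genes were called by sex in place of 6. The frontal cortex difference of Tbr1 was 0.00073 with scaling by total count and 0.0038 in the shared fit. Leaving out each library gave log2 differences of -0.029 to 0.16 for Fezf2 and -0.032 to 0.030 for Tbr1 in frontal cortex, and -0.056 to 0.043 for Cux1, -0.47 to 0.081 for Cux2, -0.52 to 0.076 for Tbr1, -0.35 to 0.11 for Rorb, -0.0014 to 0.14 for Tle4 and -0.17 to 0.13 for Mef2c in striatum. No paired analysis was possible because the groups share no replicate numbers and the labels do not tie libraries of the 2 regions to mice. The cause of these changes was not tested. A level of 1 CPM stood for 23.7 to 33.9 counts, and the lowest level of a member, Neurod6 in library 22, rested on 23 counts. The part of depth and of the spread between striatal libraries in the striatal result was not tested.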

Other observations

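The choroid plexus sum was 4579 CPM in library 15, an Igf2enh-/- female, and 170.5 to 365 CPM in the other striatal libraries, of which library 20 was the highest. In frontal cortex the sum was 171 to 268 CPM, although Ttr and Clic6 of that list had medians of 0.106 and 0.173 CPM there. Other genes of the list thus carried the frontal cortex sum, and a sum of that size is no sign of choroid plexus. In library 15 Tbr1 stood at 31.4 CPM, which was the striatal median. Among striatal libraries the meningeal fibroblast sum was also highest in library 15, at 105 CPM, followed by library 20 at 46.2 CPM, library 19 at 41.0 CPM and library 23 at 40.1 CPM. Igf2 was highest in library 15 as well, at 259 CPM, and the part of choroid plexus or meninges in that level was not tested.

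The summed level of 10 thalamus, septum and hippocampus genes was highest in striatal libraries 19 and 26, at 369.5 and 283 CPM, the remaining libraries of striatum holding 139.7 to 208 CPM. These libraries held 52.3 and 68.6 CPM of Tbr1 and 134 and 112 CPM of Tle4. The RNA concentration of library 22, with the lowest Tbr1, was 61.2 ng per microlitre, the lowest of all 27 libraries, and that of library 23 was 558.8 ng per microlitre, the highest.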
